A study of Mus musculus with 4 samples.

Results

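Pancreatic ductal cells line the tubes that drain digestive enzymes from acinar tissue, and some of them travel with islets when islets are isolated. They form a tight single-layered epithelium filled with the keratins Krt8, Krt18, Krt19 and Krt7, and they secrete a bicarbonate-rich fluid through ion channels, exchangers and carbonic anhydrases. In epithelia, IL-1β acts through its receptor and NF-κB to induce neutrophil-attracting chemokines and antimicrobial proteins, and IFN-γ acts through its receptor and JAK kinases to induce antiviral GTPases, chemokines and antigen presentation genes.

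Ductal cells were chosen here from 4 single-cell RNA-sequencing libraries of cultured islets of male C57BL/6 mice (C57BL6/J in the study's methods): untreated islets, and islets exposed to IL-1β, to IFN-γ or to both cytokines together for 6 h. No engineered allele is named for the mice, islets of several mice were pooled before they were divided over the 4 conditions, and each condition is 1 library, so a library cannot be told apart from its treatment and no test between conditions was possible. A barcode was kept if between 200 and 4000 genes were detected in it and no more than 12% of its UMIs were mitochondrial (a UMI, or unique molecular identifier, marks 1 captured transcript). It was called ductal if it held UMIs of at least 3 of the 6 genes Krt19, Krt7, Krt17, Sox9, Spp1 and Cftr, less than 2% of its UMIs from the insulin genes Ins1 and Ins2 together, and less than 1% each from Gcg, Sst and Ppy.

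This gave 56 ductal cells of 7471 kept cells, from 12571 barcodes in all, a share of 0.75% (exact 95% binomial interval 0.567 to 0.972%). The untreated library held 13 of them, the IL-1β library 14, the IFN-γ library 23 and the library with both cytokines 6. They made up 0.855% (0.456 to 1.46%), 0.694% (0.38 to 1.16%), 1.08% (0.688 to 1.62%) and 0.331% (0.122 to 0.72%) of the kept cells of these libraries, and these intervals overlap. The counts rest on 100178, 109543, 252151 and 55707 UMIs summed over the ductal cells of each library, in the same order, out of library totals of 50731370, 20056630, 31209339 and 25716645. The median ductal cell had 10066 UMIs if untreated, 7327 after IL-1β, 10371 after IFN-γ and 9862.5 after both, and 5 untreated cells had fewer than 4000 UMIs. All intervals below cover counting error only, not the spread between islet preparations.

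The values that chose the cells are a description and support nothing further. Krt19, the keratin most often used to mark ducts, had a UMI in 56 of the 56 cells, Spp1, which encodes the secreted phosphoprotein osteopontin, in 56, Krt7 in 55, the progenitor and duct transcription factor Sox9 in 37 and Krt17 in 28. Cftr, the chloride channel of duct fluid, had 3 UMIs in 3 cells, so the label rests on 5 of the 6 marker genes. Of the 572 kept cells under the hormone limits, 330 held none of the 6 markers, 148 held 1, 38 held 2, 12 held 3, 22 held 4, 21 held 5 and 1 held 6. The 12 cells just inside the limit had a median of 8830.5 UMIs and the 38 cells just outside it 5143.5, and values of genes that the rule did not use are given for both with no test. Epcam, an epithelial adhesion molecule, was found in 12 of 12 cells with 3 markers at 2190 CPM (counts per 1000000, that is the UMIs of a gene in every 1000000 UMIs of the cells summed), and in 19 of 38 cells with 2 markers at 210 CPM. The secreted protease-inhibitor-like gene Wfdc2 was found in 9 of these 12 and in 0 of these 38, which allows a share of cells with a UMI of up to 7.89% at their lower depth. The digestive protease gene Prss2 had a UMI in 2 of the 12 cells (6191 CPM over all 12) and in 14 of the 38 (17125 CPM).

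Epithelial genes were high in the ductal cells. Levels in CPM were summed over the 4 libraries and set beside those of cells gated as β (4556 cells, insulin genes at 10% or more of UMIs), acinar (47 cells, 6 enzyme genes at 5% or more), endothelial (120), macrophage (135) and mesenchymal (34 cells, each of these last 3 with at least 3 of 6 markers). Of 4049 genes with at least 20 UMIs in ductal cells, 224 were at least 2-fold above every one of these 5 classes, or 5.53%. Among the lists of duct genes, outside the rule's own markers, the keratins and junction genes counted 9 of 14, the transport genes 4 of 10, the cilium and polycystic disease genes 3 of 5, the transcription factors 6 of 9, the surface and secreted proteins 11 of 19, and the Hippo and Notch pathway genes 1 of 10. The last share is close to the background. These counts carry no test, since the same UMIs chose the cells.

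Krt18 stood at 7110 CPM (6882 to 7343) in ductal cells and at 3539 in acinar-gated cells. Its partner keratin Krt8 stood at 6785 (6563 to 7014) in ductal and 3214 in acinar-gated cells, and in β-gated cells the pair stood at 215 and 162. These sums hide a difference between libraries, given further below. In untreated and IL-1β ductal cells Krt18 was under that acinar-gated level, and Krt8 was less than 2-fold above it. Their place among the keratin and junction genes counted above thus rests on the libraries with IFN-γ. Epcam reached 2635 (2497 to 2779), 17.0-fold above the next class. Genes of tight and adherens junctions followed, with Cldn3 at 773 CPM, Cldn4 and Cldn7 each at 697, and the adherens junction cadherin Cdh1 at 485. These junction genes were 2.49-fold to 3.57-fold above the next class. Tjp1 and Jup, which encode junction plaque proteins that endothelial cells share, were lower in ductal than in endothelial-gated cells, at 110 against 156 and 151 against 255 CPM.

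Among transport genes, the sodium bicarbonate cotransporter Slc4a4 was at 162 CPM in ductal cells, 11-fold above the next class. Carbonic anhydrase 2, Car2, which supplies bicarbonate, was at 129 (10.8-fold above the next class), and the chloride channel gene Ano1 was at 96.6 (3.74-fold). The Na,K-ATPase subunit Atp1b1 was at 415 (2.84-fold). Slc26a6, Slc26a3, Car4, Car12 and Aqp1 had no UMI in any of the 56 cells, which allows up to 5.8 CPM, and the secretin receptor gene Sctr had 6 UMIs in 5 cells. These limits rest on 517579 UMIs over the 56 cells.

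Several transcription factors and cilium genes of ducts stood above the other classes. Onecut2, a homeodomain factor of the liver and pancreas, was at 259 CPM and 103-fold above the next class. Ehf, an epithelial ETS factor, was at 230 (10.4-fold), Klf5 at 158 (3.26-fold) and Gata6 at 85.0 (7.10-fold). Neurog3, the endocrine progenitor factor, and the acinar factor Bhlha15 had no UMI. Pkhd1, mutated in recessive polycystic kidney disease, was at 100.5 CPM and 25.8-fold above the next class. Bicc1, an RNA-binding protein of the same disease pathway, was at 143 (3.67-fold) and Dcdc2a at 79.2 (4.96-fold).

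Of genes detected in at least 50% of the ductal cells, the 15 that were furthest above every other class were Wfdc18, Fermt1, Wfdc2, Lcn2, Ankrd1, Plet1, Onecut2, Epcam, Tstd1, Scara3, Mal, Cp, Fxyd3, Foxq1 and Wwc1. Wfdc18 was at 1041 CPM (955 to 1133), Fermt1, an integrin activator of epithelia, at 433, and Wfdc2 at 419. The iron-binding antimicrobial protein gene Lcn2 was at 8061 CPM (7818 to 8309), 40.4-fold above β-gated cells, and was found in 47 of 56 cells. Ankrd1, a target of the Hippo pathway effector YAP, was at 301 and the copper-carrying ferroxidase Cp at 572. Clu, a secreted chaperone with many UMIs in ducts, was at 14749 CPM but at 15039 in acinar-gated cells. It does not set ductal cells apart from acinar cells here.

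**Figure D1:**
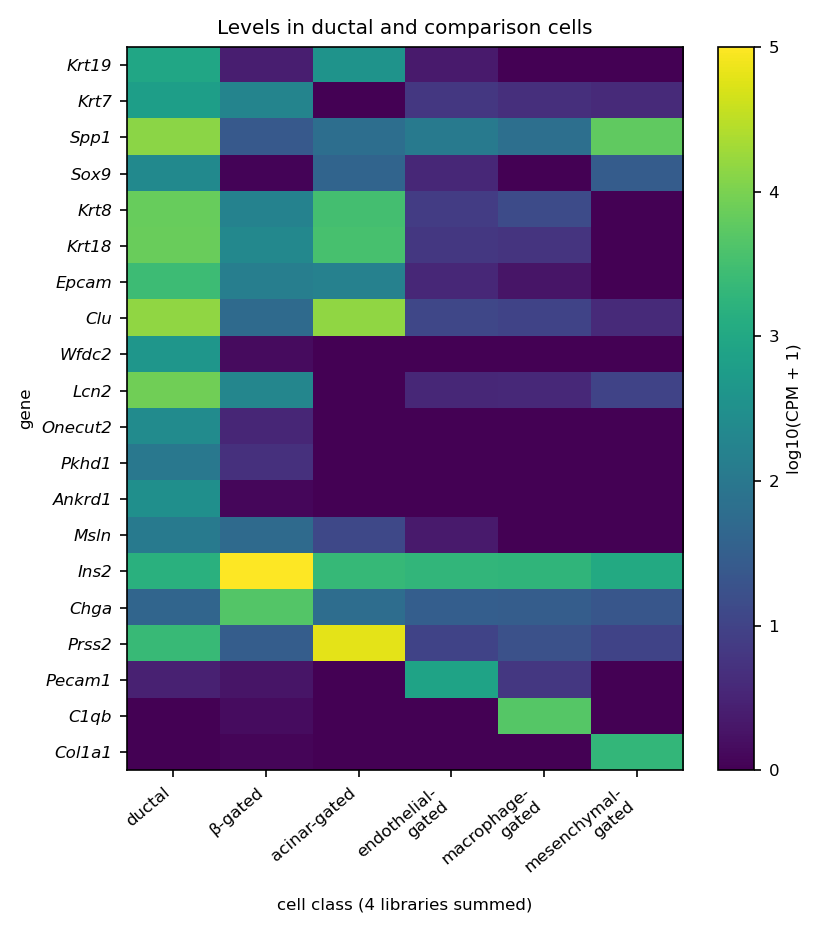
Levels of duct genes and of markers of other cells, in CPM summed over 4 libraries (colour, log10 of the level plus 1), for ductal cells and 5 comparison classes (columns) and 20 genes (rows). Wfdc2, Onecut2 and Pkhd1 stood under 5 CPM in each of the other 5 columns, while Clu, Krt8 and Krt18 were also high in acinar-gated cells.

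Most defining markers of other cell types were at or near 0. Of 8 endothelial genes, 4 had no UMI and the summed level was 17.4 CPM (top gene Egfl7, 4 UMIs), against 10181 in endothelial-gated cells. Of 11 macrophage genes, 9 had no UMI, among them Ptprc, C1qa and Lyz2, and the sum was 27.0 CPM. Of 10 mesenchymal genes, 8 had no UMI, among them Col1a1, Col3a1 and Pdgfrb, while Rgs5, a pericyte gene, had 56 UMIs in 13 cells. Schwann cell and lymphocyte lists had no UMI for 6 of 8 and 5 of 6 genes. Of 8 mesothelial genes 5 had none, and Msln had 57 UMIs in 16 cells. By library, the summed endothelial list was at 29.9, 18.3, 11.9 and 18.0 CPM and the macrophage list at 9.98, 18.3, 27.8 and 71.8 (untreated, IL-1β, IFN-γ, both). The mesenchymal list, nearly all Rgs5, was at 112 CPM in all and at 39.9, 137, 151 and 18.0 by library, and the mesothelial list, nearly all Msln, at 116 in all and at 89.8, 155, 91.2 and 197. No ductal cell met the endothelial, macrophage or mesenchymal gate.

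Acinar and hormone transcripts varied by library. The list of 20 acinar genes summed to 160 CPM in untreated cells, 31467 with IL-1β, 27309 after IFN-γ and 18.0 after both, with Ctrb1 the most abundant, and most of it came from 2 cells. One IFN-γ cell of 18149 UMIs had 19.8% of its UMIs from the 6 gated enzyme genes, and 1 IL-1β cell of 17760 UMIs had 9.30%, while the highest of the other 54 cells had 0.15%. Ins2 was at 3484, 502, 1226 and 772 CPM in ductal cells and at 4100, 900, 1978 and 786 in endothelial-gated cells, which should make none, against 297946, 168351, 207970 and 256402 in β-gated cells. The rule caps insulin UMIs, so these ductal levels are a description, and in each library they were below those of endothelial-gated cells. The pan-endocrine list, led by Cpe, was at 147 CPM, against 12413 in β-gated cells. The α-cell list was led by Gc (89 UMIs) and the δ-cell list by Hhex (85 UMIs), both 2.62-fold or more above every comparison class, and the PP-cell list by Ppy (39 UMIs).

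Clustering without the 6 marker genes placed most of the cells together. The 572 cells under the hormone limits fell into 12 clusters, of which 1 held 52 of the 56 ductal cells (92.9%, exact interval 82.7 to 98.0%) and 14 other cells with a median of 1160 UMIs. The genes leading it were Lcn2, Wfdc2, Wfdc18, Krt17, Onecut2, Foxq1, Mal, Fermt1, Ankrd1 and Tstd1, a description only, since Krt17 is a marker of the rule and most cells of the cluster were chosen by it. Of the other 4 ductal cells, the 2 with many enzyme UMIs lay in a cluster led by Spink1, Rnase1 and Klk1, and 2 untreated cells under 4000 UMIs lay in a mixed cluster with a median of 959 UMIs. With no upper gene limit the leading cluster held 57.4% of 115 ductal cells, and with at least 2 markers 62.8% of 94. Scrublet, a doublet caller, marked 106 of the 7471 kept cells (1.42%) and 0 of the ductal cells. There were 16 barcodes that occurred in more than 1 library and 0 of them belonged to a ductal cell.

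Cytokine responses were read from well-counted genes, those with at least 20 UMIs in the ductal cells of the treated and untreated library together and seen in at least 3 cells of either. A gene counted as higher or lower when log2 of the ratio of (CPM + 10) was at least 1 in size. With 1 library per condition this is a description of size and not a test. With IL-1β 6.47% of 1654 well-counted genes were higher and 8.52% lower, with IFN-γ 10.8% of 2880 were higher and 4.72% lower, and with both 10.8% of 1248 were higher and 11.9% lower. All 3 comparisons share the same 13 untreated cells. A gene at or near 0 in untreated cells can pass the UMI minimum only through treated cells where it is high, so whole lists are counted below over genes that would reach 20 UMIs if treated cells stood at the untreated level, and that were seen in at least 3 untreated cells. By this minimum on untreated cells, 1.86% of 1719 genes were higher and 14.3% lower with IL-1β, 2.66% of 2927 higher and 13.8% lower with IFN-γ, and 4.2% of 1262 higher and 17.7% lower with both.

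Gbp2, Cxcl10 and Cxcl2 are response genes described below whose promoters hold motifs of the pathways concerned, and they are shown with the 250 bases before the transcription start (RefSeq, mouse GRCm38.p6), 5′ to 3′ on the gene's strand. Capitals mark matches on either strand to GAAA, any 2 bases and GAAA (ISRE, the interferon-stimulated response element) or to GGG, any 5 bases and CC (an NF-κB site).

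Gbp2, chr3:142620413-142620662, plus strand: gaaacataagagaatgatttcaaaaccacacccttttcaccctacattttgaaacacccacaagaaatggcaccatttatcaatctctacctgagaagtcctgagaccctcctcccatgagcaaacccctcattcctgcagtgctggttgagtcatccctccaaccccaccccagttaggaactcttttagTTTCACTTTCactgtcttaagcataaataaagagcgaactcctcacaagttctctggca

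Cxcl10, chr5:92348890-92349139, minus strand: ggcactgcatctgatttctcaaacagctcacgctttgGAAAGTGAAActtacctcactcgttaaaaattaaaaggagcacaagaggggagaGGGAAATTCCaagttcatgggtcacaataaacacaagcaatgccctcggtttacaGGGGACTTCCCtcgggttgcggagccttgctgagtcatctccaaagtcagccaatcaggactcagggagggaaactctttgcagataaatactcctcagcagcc

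Cxcl2, chr5:90903649-90903898, plus strand: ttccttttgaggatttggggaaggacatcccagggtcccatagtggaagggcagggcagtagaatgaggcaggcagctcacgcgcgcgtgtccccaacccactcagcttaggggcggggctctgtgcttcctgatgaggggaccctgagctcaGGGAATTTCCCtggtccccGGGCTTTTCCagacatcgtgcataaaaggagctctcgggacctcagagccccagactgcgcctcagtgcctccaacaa

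The Gbp2 window has 1 ISRE match at position -59 from the start, read on the opposite strand. The Cxcl10 window has an ISRE match at -213 and NF-κB matches at -159, -104 and -103, the last pair overlapping in 1 stretch and both fitting on the printed strand. The Cxcl2 window has NF-κB matches at -97 and -96, which are both strands of 1 stretch, and at -78. Across windows from 250 bases before to 50 after the start, 3.49% of 27025 genes held an ISRE match and 50.4% an NF-κB match. Of the 34 genes of the interferon target list, whether or not they were seen in these cells, 24 had a promoter given, and 16 of these (66.7%) held an ISRE match and 15 an NF-κB match. Of the 38 genes of the NF-κB list, 27 had a promoter given, and 23 of these (85.2%) held an NF-κB match and 0 an ISRE match. A match is a stretch of letters and not a shown binding site, and NF-κB letters are common in all promoters.

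Antiviral GTPases and other interferon targets were higher in most ductal cells of both libraries with IFN-γ. Summed over all 34 interferon target genes, with no minimum, the level was 190 CPM in untreated ductal cells, 91.3 with IL-1β, 17339 after IFN-γ and 18920 in the library with both. With IFN-γ 25 of the 34 genes were well counted and 24 of these were past 2-fold higher, but 16 of the 25 had no UMI in untreated cells, so this count is fixed by the minimum and is not read as a result. Irf9, part of the interferon signalling complex, was the 1 gene that met the minimum on untreated cells, and it was not past 2-fold, at 59.9 CPM in untreated and 83.3 in IFN-γ ductal cells. No gene of the list was well counted with IL-1β.

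Gbp2, a guanylate-binding protein that acts against intracellular pathogens, had no UMI in the 13 untreated cells and 2 UMIs in the 14 IL-1β cells. Per 10000 UMIs, its lowest, median and highest values were 0, 42.8 and 107 in IFN-γ cells and 0, 66.3 and 93.6 in cells with both cytokines, with UMIs in 21 of 23 and 5 of 6 cells. The 2 IFN-γ-treated libraries thus stood above the others except for 3 cells at 0. Summed levels were 4557 CPM with IFN-γ and 5637 with both, at least 152-fold and at least 188-fold above untreated cells (against a floor of 3 UMIs over the untreated cells). Thinned to 2000 UMIs a cell, Gbp2 was seen in 0 of 10 untreated, 0 of 14 IL-1β, 19 of 23 IFN-γ and 5 of 6 cells with both.

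The immunity-related GTPase Iigp1 had no UMI in untreated or IL-1β cells, stood at 3022 CPM with IFN-γ and at 1993 with both, and was at least 101-fold and at least 66.5-fold higher. Cxcl10, a chemokine that attracts T cells, was less even between cells. It had 1 UMI in untreated cells, 0 with IL-1β, and per 10000 UMIs ran from 0 through a median of 4.05 to 121 with IFN-γ and from 0 through 16.2 to 58.0 with both. One cell gave 31.5% of its UMIs with IFN-γ and 1 gave 50.7% with both. Its summed level was 1824 and 2585 CPM against 9.98 in untreated cells. Ifit3, Gbp3, Igtp and Ifi47 had no UMI in untreated cells and were at 694, 599, 571 and 389 CPM with IFN-γ. Irgm1 was at 754 against 9.98 and the transcription factor Irf1 at 452 against 29.9.

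Summed over the list, interferon target UMIs per 10000 ran from 0 to 7.6 (median 1.69) in untreated cells and from 0 to 5.0 (median 0) in IL-1β cells. They ran from 0 to 423 (median 188) with IFN-γ and from 0 to 379 (median 167) with both. Of the IFN-γ cells 21 of 23 stood above the highest untreated cell, and of the cells with both cytokines 5 of 6. The 2 IFN-γ cells that did not were at 0 and 1.46, with 8553 and 6853 UMIs, the latter the fewest of any ductal cell of that library, whose median was 10371. The cell at 0 had 47 of the 49 Cxcl5 UMIs and 12 of the 12 Cxcl2 UMIs of the IFN-γ library and its highest sum of NF-κB targets, 87.7 per 10000 UMIs. The 1 such cell with both cytokines had 5271 UMIs and no Gbp2.

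Genes of antigen presentation were higher with IFN-γ too. Of 19 such genes 8 met the minimum on untreated cells, 7 were higher (H2-K1, H2-T23, B2m, Tapbp, Psmb10, Psme1 and Psme2) and 0 lower, against 2.66% higher over all genes. Tap1, the peptide transporter of class I presentation, was at 9.98 CPM in untreated ductal cells, 0 with IL-1β, 468 after IFN-γ and 736 after both. The immunoproteasome subunit Psmb8 was at 49.9, 36.5, 1095 and 1292 in the same order, which is 21.9-fold higher with IFN-γ (exact interval 9.28 to 68.1) and 25.9-fold with both (10.6 to 82.2). B2m, the light chain of class I molecules, was at 260, 210, 1190 and 1023. Cd74, the class II invariant chain, had 0, 1, 49 and 14 UMIs and was seen in 13 of 23 IFN-γ cells, and the class II gene H2-Ab1 had 0, 1, 23 and 2. With at least 2 markers in place of 3, the log2 difference with IFN-γ turned to -1.27 for Cd74 and to -0.053 for H2-Ab1. The class I gene H2-D1 was not past 2-fold, at 509 CPM untreated and 841 with IFN-γ. With IL-1β, 6 genes of the list met that minimum and 0 were past 2-fold in either direction.

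**Figure D2:**
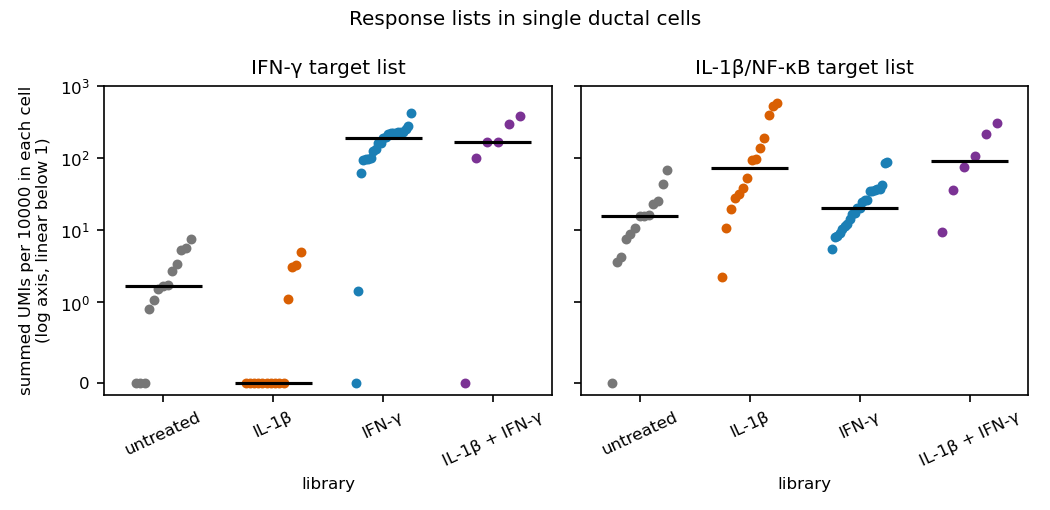
Summed UMIs of the interferon target list (left) and the IL-1β and NF-κB target list (right) per 10000 UMIs in each ductal cell (points, log axis that is linear below 1) by library, with the median as a line. Interferon targets were above the highest untreated cell in 21 of 23 IFN-γ cells and 5 of 6 cells with both cytokines, NF-κB targets in 7 of 14 IL-1β cells and 4 of 6 cells with both.

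Chemokines that attract neutrophils were higher with IL-1β, in part of the ductal cells. Summed over all 38 NF-κB target genes, with no minimum, the level was 1487 CPM in untreated ductal cells, 12616 with IL-1β, 2514 after IFN-γ and 13804 in the library with both. With IL-1β 9 of the 38 were well counted and 7 of these past 2-fold higher, against 6.47% of all well-counted genes. But 3 of the 9 had no UMI in untreated cells, and 3 of the 38 met the minimum on untreated cells. The count of 7 is thus in part fixed by the well-counted minimum and is not read as a result. Of the 3 that met the minimum on untreated cells, Nfkbia was higher and Cxcl16 and Sod2 were not past 2-fold. Over all genes 1.86% were higher by that minimum. List sums per 10000 UMIs ran from 0 to 68.7 (median 15.5) in untreated cells and from 2.25 to 583 (median 73.5) in IL-1β cells, and 7 of 14 IL-1β cells were above the highest untreated cell, so the groups overlap.

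Cxcl5 (chr5:90759360-90761624 in mm10, plus strand, protein-coding), a neutrophil chemokine of epithelia, had 2 UMIs in 1 untreated cell. Per 10000 UMIs its lowest, median and highest values were 0, 19.2 and 437 in IL-1β cells, with UMIs in 11 of 14 cells. The summed level was 20 CPM untreated and 7194 with IL-1β, 360-fold higher (99.4 to 2980). IFN-γ cells had 49 UMIs, 95.9% of them from the 1 cell with no interferon target UMI, and cells with both cytokines had 230 UMIs from 2 of 6 cells (4129 CPM). Thinned to 2000 UMIs a cell, Cxcl5 was seen in 0 of 10 untreated, 9 of 14 IL-1β, 1 of 23 IFN-γ and 2 of 6 cells with both. Cxcl2, a related chemokine, had 5 UMIs in 1 untreated cell and per 10000 UMIs ran from 0 through 2.03 to 206 in IL-1β cells, where 1 cell held 69.6% of the 217 UMIs. It was at 49.9 CPM untreated and 1981 with IL-1β (39.7-fold, 16.7 to 123). Cxcl1 had no UMI in untreated cells and was at 511 CPM with IL-1β, at least 17.1-fold higher.

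Ccl20, which attracts dendritic cells and lymphocytes, had 0, 20, 0 and 15 UMIs across the 4 libraries in the order above, in 4 of 14 IL-1β cells and 2 of 6 cells with both. Tnfaip2, an NF-κB-induced gene, had 0 UMIs untreated and 28 with IL-1β. Nfkbia, the inhibitor that switches NF-κB off, was at 210 CPM untreated and 456 with IL-1β (2.18-fold, 1.28 to 3.82). Sod2, the mitochondrial superoxide dismutase, was at 180 and 183 (1.02-fold, 0.51 to 2.04). Genes outside the list were also higher with IL-1β. The mucosal scavenger protein gene Dmbt1 was at 39.9 CPM untreated and 977 with IL-1β (24.5-fold, 9.28 to 91.4, in 7 of 14 cells), the tissue plasminogen activator gene Plat at 20 and 566 (28.4-fold, 7.52 to 239), the nucleoside transporter gene Slc28a3 at 9.98 and 210, and Plet1, a surface protein of epithelial progenitors, at 230 and 1534 (6.68-fold, 4.31 to 10.8). Dmbt1 is also an acinar gene in these libraries, at 999 CPM in acinar-gated cells, and whether acinar RNA plays a part in that difference was not tested.

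**Figure D3:**
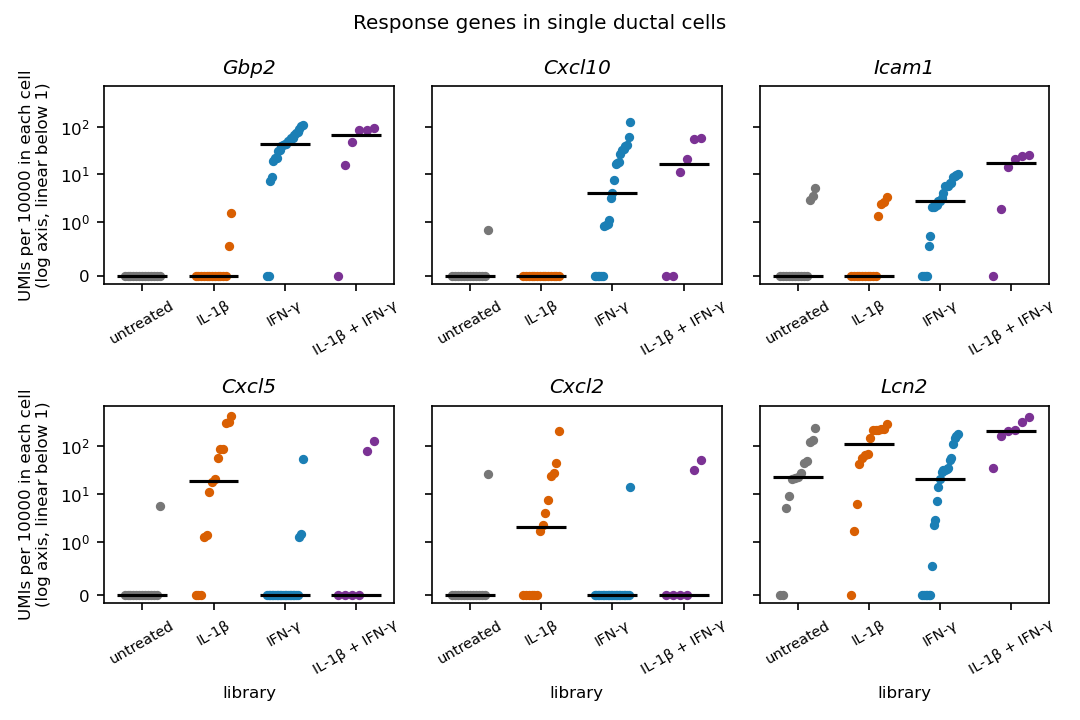
UMIs per 10000 in each ductal cell (points, log axis that is linear below 1) for 6 response genes, by library, with the median as a line. Gbp2 filled 21 of 23 IFN-γ cells and 5 of 6 cells with both cytokines, Cxcl5 filled 11 of 14 IL-1β cells but 2 of 6 cells with both, and Lcn2 was spread over all 4 libraries.

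With both cytokines, interferon targets stood above the highest untreated cell in 5 of 6 cells and NF-κB targets in 4 of 6. The cell with no interferon target UMI was also lowest of the 6 in NF-κB targets, at 9.49 per 10000 UMIs, under the untreated median of 15.5. No interferon target met the minimum on untreated cells in this comparison. Of 4 antigen presentation genes that did, 3 were higher (H2-K1, B2m and Psme2), and of 3 NF-κB targets 3 were higher (Nfkbia, Cxcl16 and Sod2), against 4.2% over all genes. Cxcl1, Cxcl2 and Cxcl5 were seen in 2 cells each. Icam1, which binds leukocytes, was at 79.9 CPM untreated, 54.8 with IL-1β, 373 after IFN-γ and 1490 after both. Per 10000 UMIs it ran from 0 through 0 to 5.29 untreated, 0 through 0 to 3.33 with IL-1β, 0 through 2.86 to 10.3 with IFN-γ and 0 through 17.5 to 25.2 with both. It was 4.67-fold higher with IFN-γ (2.27 to 11.1) and 18.7-fold with both (9.04 to 44.6). Sod2 was at 700 with both (3.90-fold, 2.18 to 7.24) and had a UMI in 6 of 6 cells. Whether the effect of both cytokines differs from the sum of each alone was not tested.

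Acute-phase and mucosal defence genes were led in UMIs by Lcn2 (chr2:32384633-32388252 in mm10, minus strand, protein-coding). Of 22 such genes, 8 met the minimum on untreated cells in each comparison. With IL-1β 1 was higher (Cebpd) and 1 lower, with IFN-γ 1 was higher (Mt1) and 2 lower, and with both 3 were higher (Lcn2, Cp and Cebpd) and 0 lower. Over all genes the shares were 1.86%, 2.66% and 4.2% higher and 14.3%, 13.8% and 17.7% lower, so the lower counts are near the background. Lcn2 per 10000 UMIs ran from 0 through 23.1 to 238 in untreated cells, from 0 through 109 to 292 with IL-1β, from 0 through 20.6 to 181 with IFN-γ and from 36.0 through 213 to 416 with both, so single cells of all libraries overlap. It was already present in 11 of 13 untreated cells. Summed levels were 6059, 11402, 3752 and 24593 CPM, which is 1.88-fold higher with IL-1β (1.71 to 2.08), 1.61-fold lower with IFN-γ (1.46 to 1.79) and 4.06-fold higher with both (3.69 to 4.47). Cebpd, a transcription factor of the acute phase, was at 170, 529, 131 and 1095 (3.12-fold higher with IL-1β, 1.79 to 5.72). The secreted protease inhibitor gene Slpi had 4 UMIs untreated and 32 with IL-1β. Lbp, which binds bacterial lipopolysaccharide, was at 150 CPM untreated and 23.8 with IFN-γ, and the complement gene C3 was within 2-fold of untreated in each library, at 359, 283, 226 and 556. The metal-binding Mt1 counted as higher with IFN-γ, but the cell richest in acinar UMIs held 68.4% of its UMIs there, and without that cell and the other enzyme-rich cell its log2 difference was -0.47.

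Receptor genes were present at low counts. Ifngr1, the ligand-binding chain of the IFN-γ receptor, was at 150, 274, 254 and 215 CPM over the ductal cells of the 4 libraries in the order used above, and at 7.17, 26.2, 10.4 and 15.8 in β-gated cells. Il1r1, the signalling IL-1 receptor, had 4, 4, 6 and 1 UMIs, or 39.9, 36.5, 23.8 and 18.0 CPM, and stood at 239, 242, 220 and 88.6 in β-gated cells. Il1rn, the secreted IL-1 receptor antagonist, was at 29.9, 146, 87.2 and 305, and 10.2-fold higher with both (2.95 to 54.3). Of 21 receptor and signalling genes, 1, 5 and 1 met the minimum on untreated cells with IL-1β, IFN-γ and both, and 0 were past 2-fold.

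Heat shock and immediate early genes, which can report handling stress, were counted by the same minimum. Of 10 heat shock genes 6, 7 and 6 met the minimum on untreated cells with IL-1β, IFN-γ and both, and in each comparison 0 were higher and 1 was lower. Of 13 immediate early genes 9, 9 and 8 met it, of which 2, 1 and 1 were higher and 1, 1 and 2 lower. The lower counts of both lists are near the shares over all genes given above. Klf6 was at 120 CPM untreated and 374, 357 and 485 after treatment, and met that minimum with IL-1β and with IFN-γ but not with both. With no upper gene limit its log2 differences were 0.32, 0.80 and 0.77, all under 2-fold. Dusp1, a phosphatase that dampens MAP kinases, was higher with IL-1β and with both (130, 402 and 574 CPM) and lower with IFN-γ (55.5), and 1 untreated cell held 61.5% of the untreated UMIs. Thinned to 2000 UMIs a cell, the direction with IFN-γ turned, to a log2 difference of 1.23. With no upper gene limit the log2 difference with both was 0.09.

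Duct identity genes outside the rule's markers were past 2-fold in both directions, which did not hold in cells over the gene limit, described last. Of 11 such genes 8, 8 and 7 met the minimum on untreated cells with IL-1β, IFN-γ and both. With IL-1β 2 were higher (Car2, and Tspan8, which stood at a log2 difference of -0.11 with no upper gene limit) and 0 lower, with IFN-γ 2 were higher (Krt8 and Krt18) and 2 lower, and with both 1 was higher (Krt18) and 1 lower (Onecut2). Over all genes 1.86%, 2.66% and 4.2% were higher and 14.3%, 13.8% and 17.7% lower. Krt18 (chr15:102028180-102032027 in mm10, plus strand, protein-coding) was higher with IFN-γ. Per 10000 UMIs it ran from 2.55 through 37.1 to 57.1 in untreated cells, 9.99 through 27.4 to 110 with IL-1β, 32.9 through 90.8 to 251 with IFN-γ and 20.9 through 68.8 to 149 with both. Its summed levels were 3104, 2930, 10422 and 7539 CPM, or 3.36-fold higher with IFN-γ (2.98 to 3.79) and 2.43-fold with both (2.09 to 2.82). Krt8 followed, at 4203, 4263, 8792 and 7306, 2.09-fold higher with IFN-γ (1.88 to 2.33). Acinar-gated cells also hold both keratins. Without the 2 cells rich in enzyme UMIs the log2 difference of Krt18 with IFN-γ was 1.81, against 1.74 with them. Onecut2 was lower, at 559, 320, 163 and 35.9 CPM, 3.44-fold with IFN-γ (2.26 to 5.28) and 15.6-fold with both (4.11 to 132, from 2 UMIs). Epcam stayed within 2-fold at 3045, 2164, 2677 and 2639, and so did Clu at 17249, 16596, 12540 and 16623. Genes of the rule itself are given as a description: Krt19 was at 1517, 904, 761 and 628 CPM and Spp1 at 21412, 11228, 11612 and 9783.

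Genes furthest below their untreated level often had few UMIs in treated cells. Other genes lower with IL-1β had more, such as Cldn3 (107 UMIs untreated, 46 with IL-1β) and Sox4 (103 and 50). Among genes with at least 20 UMIs in the untreated cells and seen in at least 50% of them, hormone and acinar genes left out, the 8 largest with IL-1β were Fbln2, Spint1, Itm2c, Gadd45b, Bicc1, Hhex, Lsm4 and Crip2. A gene enters such a set only through untreated cells where it is high, which favours falls, so these sizes are a description. With IL-1β, 14.3% of all genes were lower by the minimum on untreated cells, against 8.52% of well-counted genes. The matrix protein gene Fbln2 went from 409 to 73.0 CPM (5.6-fold lower, 2.59 to 13.8), and Spint1, an inhibitor of epithelial proteases, from 399 to 73.0 (5.47-fold lower, 2.52 to 13.5). With IFN-γ they were Crip1, Mbp, Gadd45b, Bicc1, Ivns1abp, Onecut2, Tm4sf4 and Phf5a. Crip1 went from 489 to 47.6 CPM, with 73.5% of its untreated UMIs in 1 cell. With both they were Mbp, Id2, Onecut2, Gpx2, Phb2, Chchd1, Phf5a and Lurap1l, each with 0 to 5 UMIs in the 6 treated cells. Id2, an inhibitor of differentiation factors, went from 46 UMIs, 50% of them in 1 cell, to 1 UMI. The duct gene Pkhd1, seen in 6 of 13 untreated cells and so outside these sets, had 23 UMIs untreated, 3 with IL-1β, 24 after IFN-γ and 2 in the library with both, or 230, 27.4, 95.2 and 35.9 CPM.

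Ductal and β-gated cells of the same libraries gave different values for the same genes. Over all well-counted genes of β-gated cells, 5.39% were higher and 0.705% lower with IL-1β. The shares were 1.24% and 0.0082% with IFN-γ, and 4.64% and 1.32% with both. Of the well-counted ductal genes that could be compared in β-gated cells, 227 of 1608 were higher and 10 lower there with IL-1β. These counts were 97 and 0 of 2771 with IFN-γ, and 154 and 6 of 1210 with both. The median log2 difference of these genes in β-gated cells was 0.429, 0.249 and 0.213 (IL-1β, IFN-γ, both). Insulin UMIs are part of the β-gated totals and were not adjusted for. Ins2 alone was at 297946 CPM untreated, 168351 with IL-1β, 207970 after IFN-γ and 256402 after both. The difference between the classes was not tested, since each has 1 library per condition. Gbp2 in β-gated cells was at 1.52 CPM untreated, 297 with IL-1β, 819 after IFN-γ and 1834 after both, against 0, 18.3, 4557 and 5637 in ductal cells. With IL-1β alone it thus stood at 297 in β-gated cells and at 18.3 (2.21 to 66.0) in ductal cells. Cxcl10 in β-gated cells was at 2.17, 68.9, 76.1 and 2684, and so was low with IFN-γ alone, where ductal cells were at 1824. Icam1 in β-gated cells was at 0.253, 139, 3.52 and 402, highest with both as in ductal cells, but with IL-1β above IFN-γ, where ductal cells had 54.8 with IL-1β and 373 with IFN-γ. Sod2 in β-gated cells was at 99.0, 1033, 110 and 959, against 180, 183, 222 and 700 in ductal cells. With no upper gene limit, ductal Sod2 with IL-1β had a log2 difference of 1.35, against 0.02 in the 56 cells. Cxcl5 stayed at or below 6.75 CPM in β-gated cells of every library, and Lcn2 at 26.9, 512, 33.4 and 389.

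**Figure D4:**
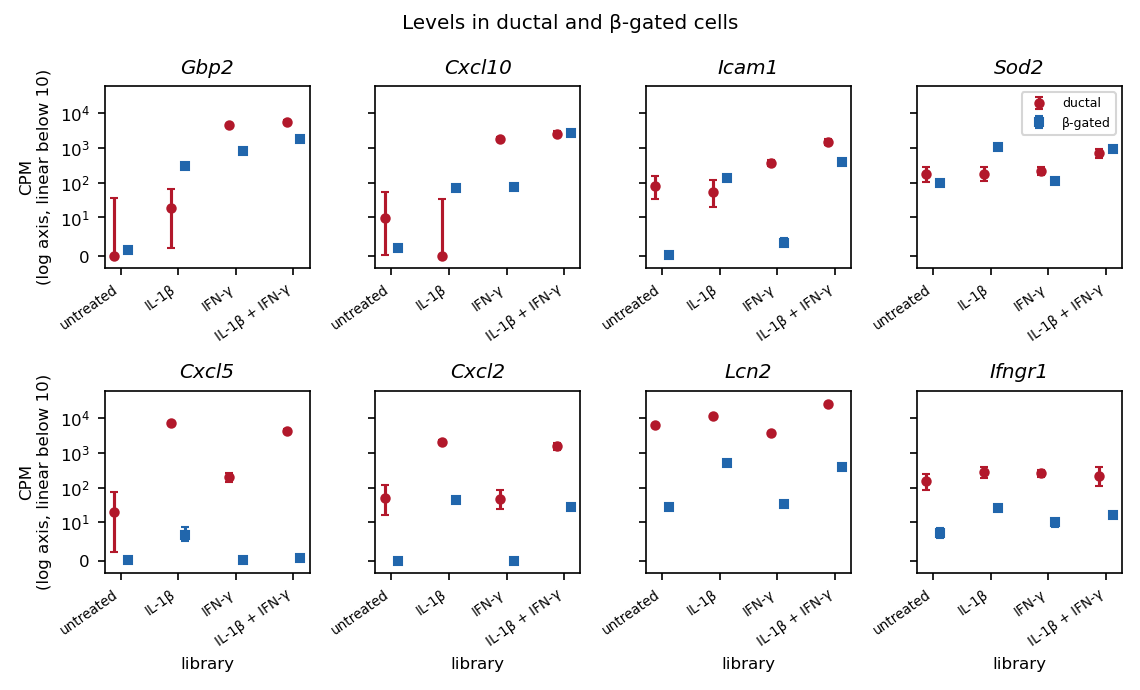
Summed levels of 8 genes in ductal cells (circles) and β-gated cells (squares) of each library, in CPM (log axis, linear below 10), with exact 95% Poisson intervals. Cxcl5 and Lcn2 were higher in ductal cells of all 4 libraries, and Gbp2 and Icam1 with IL-1β alone were higher in β-gated cells, an order that for Icam1 turned in ductal cells over the gene limit (196 CPM against 139).

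The upper limit of 4000 genes left out about as many cells as it kept. A further 59 barcodes met every other part of the rule, 15 untreated, 16 with IL-1β, 15 after IFN-γ and 13 after both, with a median of 26773 UMIs. They were 51.3% of the 115 such cells (exact interval 41.8 to 60.7%), whereas the limit removed 17.2% of the 9027 barcodes within the other limits of genes and mitochondrial UMIs. Whether some of them hold 2 cells was not tested by a caller, and 3 of them had at least 3 endothelial markers, 0 had 3 macrophage or mesenchymal markers and 1 was at 5% or more acinar UMIs. Krt19, Krt8, Krt18, Epcam and Clu had UMIs in 59 of 59 of them. None of their UMIs are in the values above, except where cells over the gene limit or no upper gene limit are named. By the minimum on untreated cells, 2.01% of genes were higher and 6.21% lower with IL-1β, 2.2% and 4.14% with IFN-γ, and 3.18% and 7.99% with both. Antigen presentation genes were higher in 9 of 10 with IFN-γ and in 9 of 10 with both, and NF-κB targets in 9 of 17 with IL-1β and 9 of 18 with both. Of the interferon targets 1 met this minimum with IFN-γ (Irgm1) and 2 with both (Irf1 and Irgm1), and each was higher. Gbp2 in these cells was at 3.51, 38.7, 5785 and 4667 CPM, Cxcl5 at 118, 6645, 429 and 4004, Lcn2 at 7560, 13310, 3191 and 18285, Icam1 at 94.7, 196, 548 and 1293, and Krt18 at 4552, 3949, 8755 and 4610. As in the 56 cells, Gbp2 was high in the pair of libraries with IFN-γ, Cxcl5 was highest with IL-1β, and Lcn2 and Icam1 were highest with both. The 2 sets of cells also differed. With IFN-γ and with both, H2-D1 was higher and H2-K1 was not past 2-fold in the cells over the limit, the reverse of the 56. Sod2 with IL-1β was at 458 CPM against 146 untreated in the cells over the limit, and was not past 2-fold in the 56. Icam1 with IL-1β stood above its untreated level, Krt18 with IFN-γ was under 2-fold higher, and Krt18 with both stood near its untreated level. Of the 11 duct identity genes outside the rule's markers 0 were higher in any comparison, and 4, 2 and 2 were lower with IL-1β, IFN-γ and both.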

How the data were processed

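Libraries were 10x Genomics Chromium 3′ libraries of dissociated islets (reagent kit v2 in the labels, v3 in the study's methods). The authors deposited whole-number UMI counts per gene and barcode, made with Cell Ranger on mm10 (the matrix headers name software 3.0.0), in 1 library per condition. Reads were not analysed here. From these counts, members, gene lists and tests were chosen with earlier results of these data known. Levels were summed UMIs in CPM (counts per 1000000), with exact Poisson 95% intervals, and shares had exact Clopper-Pearson intervals. UMI ratios had exact conditional intervals, and where untreated cells had 0 UMIs the ratio was taken against 3 UMIs over the group. Differences used log2 with 10 CPM added. UMIs counted transcript 3′ ends and were not scaled by length, so orders of genes are orders of UMI counts.

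Named genes were those with the most UMIs or the largest difference in each list (2 to 6 a list), the 15 furthest above every comparison class in at least 50% of the ductal cells, and the 8 largest differences in each direction per treated library among well-counted genes with at least 20 UMIs in the higher library and a UMI in at least 50% of its ductal cells, with mitochondrial, hormone and acinar genes left out. A few further genes were named for their role, after their values were seen. Clusters came from scanpy 1.11.5 (2000 variable genes, 20 components, Leiden resolution 1), without doublet removal; Scrublet calls were an alternative. The calculation was tested on simulated counts. Python 3.11.15, scipy 1.17.1 and pandas 2.3.3 were used. Gene models were GENCODE M21, which held 30934 of 31053 gene IDs. Promoter sequences were RefSeq's, on GRCm38.p6. Single-gene values of 2 list members are not reported here.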

Additional observations from a re-analysis of the deposited data

Results flagged for a closer look

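Outside the limits used for the report, 59 barcodes with more than 4000 genes met the marker and hormone limits, and 13 barcodes with over 12% mitochondrial UMIs did so. The first set is described above. The 13 had a median of 4409 UMIs, and 2 of them were untreated, 5 had IL-1β, 5 IFN-γ and 1 both cytokines.

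Flagged here are 5 genes, 4 with IL-1β and 1 with both cytokines, past 2-fold in opposite directions in ductal and β-gated cells. The difference between the classes was not tested. They are not all such genes. With IL-1β, Msln, seen in 6 ductal cells, had a log2 difference of 1.24 in ductal and -1.02 in β-gated cells. The acinar gene Ctrb1, seen in 3 ductal cells, had 7.10 and -1.02. With IL-1β, Gadd45b, a stress-induced gene, had a log2 difference of -1.94 in ductal cells and 2.53 in β-gated cells. Hspb1, a small heat shock protein, had -1.54 and 1.32, the metal-binding Mt2 -1.12 and 3.07, and the protease inhibitor Spint1 -2.30 and 1.39. The Mt2 value in ductal cells was 0.025 with no upper gene limit and 0.11 with at least 2 markers, so its call ends and its sign turns there. With both cytokines, Id2 had -4.07 and 1.09. The β-gated values were not adjusted for insulin UMIs, which filled unlike parts of the totals. Over the well-counted ductal genes compared, the median β-gated log2 difference was 0.429 with IL-1β and 0.213 with both. Hspb1 and Spint1 with IL-1β, and Id2 with both, were past a log2 of 1 in β-gated cells by less than that median. In untreated ductal cells 1 cell held 48.1% of the Gadd45b UMIs, 41.8% of the Hspb1 UMIs and 50% of the Id2 UMIs, and its part in these differences was not tested.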

How the results depend on the processing

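Under 16 alternatives, of 139 differences of named or listed genes past 2-fold, 131 kept their direction in each and 81 stayed past 2-fold in each, while duct list genes above every class stayed at about 34 except as given here. With no upper gene limit there were 115 cells, 57.4% of them in the leading cluster, interferon and antigen presentation genes counted 1 higher with IL-1β and 48 with both, NF-κB and acute-phase genes 26, 9 and 31 (IL-1β, IFN-γ, both), and the other response lists 6 past 2-fold with IFN-γ. The log2 difference of Tspan8 with IL-1β was then -0.11, of Mt2 with IL-1β 0.025 and of Il1rn with IFN-γ -0.17. With at least 2 markers there were 94 cells, 62.8% in the leading cluster, NF-κB and acute-phase genes counted 6 with IFN-γ and 15 with both, Mt2 with IL-1β was at 0.11, and H2-Ab1 and Cd74 with IFN-γ at -0.053 and -1.27. With at least 4 markers that list pair counted 1 with IFN-γ, and Cxcl5 and Mt1 with IFN-γ were at -0.65 and -0.15. Without cells meeting another class, 98.1% lay in the leading cluster, 1 interferon or antigen gene was higher with IL-1β and Mt1 with IFN-γ was at -0.47. Without the cell with the most UMIs in each library these were 1 and -0.63. With hormone and acinar genes out of the totals, and when thinned to 2000 UMIs, 20 duct list genes were above every class. Thinned, NF-κB and acute-phase genes counted 5 with IL-1β and 2 with both, interferon and antigen genes 19 with IFN-γ and 3 with both, the other lists 4, 4 and 2, and Dusp1 with IFN-γ was at 1.23, with fewer genes well counted. With 50 CPM added the other lists counted 5 with IFN-γ. With a minimum of 50 UMIs NF-κB and acute-phase genes counted 5 with IL-1β, interferon and antigen genes 7 with both, and the other lists 6 with IFN-γ and 4 with both. With no minimum, interferon and antigen genes counted 1 with IL-1β and 48 with both, NF-κB and acute-phase genes 23, 11 and 35, and the other lists 21, 16 and 21. Without the 5 untreated cells under 4000 UMIs, an alternative chosen after seeing the data, 1 interferon or antigen gene was higher with IL-1β and 6 NF-κB or acute-phase genes with IFN-γ. With the minimum set on untreated cells alone, also chosen after seeing the data, NF-κB and acute-phase genes counted 2 higher with IL-1β, and interferon and antigen genes 7 with IFN-γ and 3 with both, against 9, 37 and 24, since genes near 0 in untreated cells drop out. Where no construction is named, the cause was not tested. No paired analysis was possible because each condition is 1 library. Depth limits the combined library most, with 6 cells, where 1 UMI is 18.0 CPM.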
